A study of Mus musculus with 26 samples.

Results

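Rag-proficient T cell acute lymphoblastic leukaemia (T-ALL) of the mouse, on 7 arrays, was compared with TN3a thymocytes, on 3 arrays. These 10 arrays were chosen by their labels from the 26 of the series. The tumour arrays carry the strain label F1(WB x B6/Ly5.1) and the phenotype Rag-proficient, that is, with the recombinase that rearranges antigen receptor genes intact. The TN3a arrays carry the strain label C57BL/6 and the surface phenotype CD4-CD8-CD3-CD44-CD25+CD28-. The other arrays, all labelled C57BL/6, were 3 of Rag-deficient T-ALL and 13 of 6 other thymocyte stages. All material came from animals, and each sample was either sorted or used directly as a cell suspension, with no statement of which. The origin of the tumours, their organ and the age of the mice were not given in the sources used here. The labels do not state whether each array is a different mouse, and the p-values therefore reflect spread between arrays, which may be technical.

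TN3a is the stage in the thymus at which a precursor has committed to the T lineage, carries the interleukin 2 receptor alpha chain (CD25) and rearranges its T cell receptor beta gene under Notch signals from the stroma. A cell with a working beta chain pairs it with the pre-T alpha chain encoded by Ptcra, passes beta-selection, gains CD28 and divides rapidly. T-ALL is a leukaemia of such immature cells, and activated Notch1 and ectopic transcription factors of the Tal, Lmo and Hox families are known drivers of it.

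Illumina bead arrays gave each probe an intensity and a detection p-value, and levels below are log2 intensity after background correction and quantile normalisation of the 26 arrays together. The tumour arrays detected 42.58% to 46.35% of probes and the TN3a arrays 38.76% to 41.73%. TN2 replicate 2 detected 21.34%, the lowest share of any array, and the next lowest was DP replicate 1, at 34.72%. TN2 replicate 2 also had the lowest median intensity, and was kept in the normalisation, the shared variance and the TN2 means. Across probes, arrays correlated at r = 0.947 to 0.975 within the tumours, 0.956 to 0.978 within TN3a and 0.873 to 0.909 between the groups. The tumours lay on slides 1 to 3 and TN3a on slides 4, 6 and 7, and slide and deposited table cannot be told apart from tissue in any difference between tumours and thymocytes. For Rag-proficient T-ALL the strain label differs too, and its part cannot be told apart, while Rag-deficient T-ALL has the strain label of the thymocytes. The number of arrays limits the precision of all values. The TN3a label was checked on its own list of 10 genes, of which 7 were higher in TN3a than in the mean of the other 6 stages, against 3.17% of all genes, Il2ra by 4.38 and Notch3 by 3.46 on the log2 scale (limma adjusted p = 3.82e-05 and 7.96e-08).

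Of 28736 probes tested, 6548 (22.8%) differed between Rag-proficient T-ALL and TN3a at a limma adjusted p under 0.05. Of these, 3313 (11.5% of those tested) were higher in the tumours and 3235 (11.3%) lower. At least 2-fold differences were called for 2001 higher (6.96%) and 1881 lower probes (6.55%). The split of 50.6% higher depends on the scaling: it was 73.6% with median scaling in place of quantiles, where the median log2 difference of all probes was 0.18 in place of -0.01. With the brightest probe standing for each gene, 2043 of 15410 genes (13.3%) were higher and 1970 (12.8%) lower, and these shares are the background for the gene lists below. The arrays of the groups did not overlap for 27.1% of genes. Of 96 called genes named here, 21 lost their call under median scaling, and 19 of these were lower in the tumours: Bcl11b, Bcl2, Cd3e, Cd3g, H2-K1, Hes1, Il7r, Kit, Myb, Notch1, Oasl2, Prf1, Psmb9, Ptcra, Rag1, Sox13, Tcrg-V4, Tgfbr1 and Vegfa. The other probes of a gene were read as well: of 48 such genes with several probes, 31 had another probe called the same way, 0 had one called the opposite way, and for 17 no other probe was called, as is said where these are described.

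The called probes were also set beside the normal stages, as a description, since their choice by TN3a, 1 of the 7 stages, raises these shares. Among the 2001 probes at least 2-fold higher, 1399 (69.9%) had a tumour mean above the means of all 7 stages, against 17.2% of all probes tested. All 7 tumour arrays and no TN3a array detected 615 of these 2001, and 283 of them were detected on no thymocyte array. Among the 1881 probes at least 2-fold lower, 1051 (55.9%) had a tumour mean below all 7 stage means, against 15.4% of all probes tested. Of these 1881, 118 were detected on all 3 TN3a arrays and on no tumour array.

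**Figure D1:**
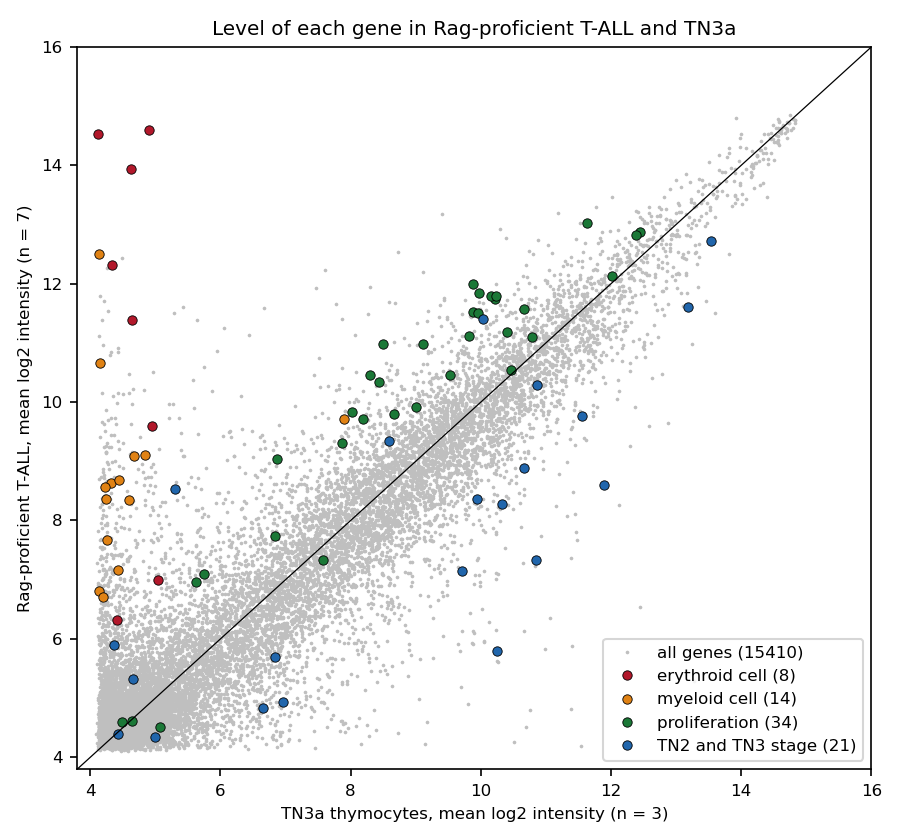
Mean log2 intensity of each of 15410 genes in Rag-proficient T-ALL (7 arrays) plotted with that in TN3a (3 arrays), with 4 gene lists coloured and the line of equal level drawn. All 8 erythroid and all 14 myeloid genes tested were called higher, as were 25 of 34 proliferation genes, while 11 of 21 genes of the TN2 and TN3 stages were called lower.

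The largest rises were those of red blood cell genes. Hba-a1, which encodes alpha globin, had a log2 intensity of 14.38, 14.52 and 14.66 in the lowest, median and highest tumour, against 4.12, 4.13 and 4.10 on the TN3a arrays, none of which detected it. It was at least 1050-fold higher in the tumours (limma adjusted p = 8.28e-15). The groups were far apart, with the 7 tumours close together. For a probe that a whole group failed to detect, the fold is such a bound: the bright group's mean is set against a mean for the dim group in which each array counts at its own value or, if higher, at its lowest detected signal.

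Slc4a1, the band 3 anion exchanger of the red cell membrane, stood at 13.43, 13.90 and 14.87 in the lowest, median and highest tumour, against 4.73, 4.69 and 4.44 in TN3a, and was at least 634-fold higher (limma adjusted p = 1.83e-16). Alas2, the erythroid enzyme that starts haem synthesis, stood at 11.79, 12.24 and 13.42 in the tumours, against 4.32, 4.45 and 4.23 in TN3a, and was at least 225-fold higher (limma adjusted p = 3.87e-15). Neither gene was detected on a TN3a array or overlapped between the groups. Hbb-b1, for beta globin, had 11 probes, of which 10 rose and 1 differed by -0.37 (limma adjusted p = 0.348). Thymocytes of other stages also had Hbb-b1 signal: its brightest probe averaged 10.46 in ETP and 11.72 in TN2, against 4.91 in TN3a and 14.64 in the median tumour. Another risen probe, ILMN_2544056, was at 4.53 in ETP and 4.37 in TN2.

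All 8 erythroid genes tested rose, against 13.3% of all genes, with a median log2 difference of 7.36 (7.28 with undetected genes at their bound), against 0.00 over all genes. They included Klf1, the transcription factor that switches on adult globin genes, at 4.65, and Epor, the erythropoietin receptor, at 1.96 (limma adjusted p = 9.96e-10 and 1.24e-05). Summed over the list, normalised intensity was 61980 to 96690 on the tumour arrays, against 185.4 to 218.2 on the TN3a arrays. In Rag-deficient tumours the mean level was 14.41 for Hba-a1 and 13.38 for Slc4a1. The part of erythroid RNA in the other differences was not tested, and in bulk samples fewer cells of a type and less RNA per cell cannot be told apart.

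Promoters are shown of the 3 risen erythroid genes that hold a match. The matches, in capitals, are to AGATAA, letters that GATA factors bind, or to CACACCC, letters that Klf1 binds, on either strand. Of the 8 risen genes 4 have a promoter entry in RefSeq (GRCm38.p6). In the 250 bases before the start, 2 of these 4 hold AGATAA and 1 holds CACACCC, against 9.99% and 6.93% of all 32851 RefSeq promoters over the same length. The motifs do not overlap in these sequences, and a match is a description of letters, not a site. Each runs 5′ to 3′ on the strand of the gene.
Alas2, chrX:150547167-150547416, plus strand, with AGATAA on the other strand 86 to 81 bases before the start: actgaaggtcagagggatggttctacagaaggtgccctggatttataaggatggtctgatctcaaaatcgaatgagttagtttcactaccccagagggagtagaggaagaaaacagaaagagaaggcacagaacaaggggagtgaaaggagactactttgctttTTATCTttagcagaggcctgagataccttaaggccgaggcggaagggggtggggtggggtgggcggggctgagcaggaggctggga
Epor, chr9:21963577-21963826, minus strand, with AGATAA on the other strand 54 to 49 bases before the start: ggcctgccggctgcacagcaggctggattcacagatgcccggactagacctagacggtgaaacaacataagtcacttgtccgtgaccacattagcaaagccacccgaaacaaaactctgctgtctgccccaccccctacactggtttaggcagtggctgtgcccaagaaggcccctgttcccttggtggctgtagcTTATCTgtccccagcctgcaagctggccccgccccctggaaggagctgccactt
Klf1, chr8:84901732-84901981, plus strand, with CACACCC 116 to 110 bases before the start: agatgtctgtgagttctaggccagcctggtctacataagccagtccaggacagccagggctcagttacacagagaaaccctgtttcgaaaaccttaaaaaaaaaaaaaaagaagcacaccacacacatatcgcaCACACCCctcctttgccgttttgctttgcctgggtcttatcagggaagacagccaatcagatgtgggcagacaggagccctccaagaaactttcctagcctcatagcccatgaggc

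All 14 myeloid genes tested rose too, with a median of 4.19 (3.97 with undetected genes at their bound). S100a8, a calcium-binding protein of neutrophils, stood at 10.53, 12.00 and 14.53 in the lowest, median and highest tumour, against 4.12, 4.12 and 4.16 in TN3a, and was at least 260-fold higher (limma adjusted p = 3.81e-09). Its partner S100a9 was at least 71.9-fold higher and Csf1r, the macrophage growth factor receptor, 21.3-fold higher (limma adjusted p = 1.78e-07 and 1.71e-07). The tumours differed from each other more than for globin. Tumour replicates 4 and 7 had the highest levels of S100a8, at 14.25 and 14.53, and of the myeloperoxidase gene Mpo, at 11.05 and 11.27, and replicate 6 the lowest of both, at 10.53 and 5.96. Mpo and the neutrophil granule gene Ngp were at least 17.7-fold higher and at least 16.8-fold higher in the tumours (limma adjusted p = 0.000383 and 0.000309). Summed normalised intensity of the list was 4586 to 48890 on the tumour arrays, against 450.8 to 591.3 on the TN3a arrays.

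Other genes among the 10 with the largest rise were Vcam1, Slc40a1, Fcna and Apol11b. Vcam1, an adhesion molecule of endothelium and macrophages, stood at 11.46, 12.41 and 12.81 in the lowest, median and highest tumour, against 4.21, 4.23 and 4.33 in TN3a, and was at least 217-fold higher (limma adjusted p = 1.1e-12). Its other probes, at 0.31 and 0.81, were not called. Slc40a1, the iron exporter ferroportin, was at least 149-fold higher, Fcna, a lectin made by macrophages, at least 132-fold higher and Apol11b, of the apolipoprotein L family, at least 158-fold higher (limma adjusted p = 2.56e-13, 1.02e-09 and 7.46e-13). No TN3a array detected any of these 4, and their groups did not overlap.

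Markers of stroma and endothelium moved with the tumours as well. Of 8 stromal genes 6 rose and 0 fell, with the matrix protein gene Fbln1 higher by 4.86 and smooth muscle actin, Acta2, at least 20.9-fold higher (limma adjusted p = 1.57e-08 and 0.00012). Of 9 endothelial genes 5 rose and 0 fell, with the junction genes Esam at least 10.4-fold higher and Cldn5 at least 4.42-fold higher (limma adjusted p = 4.6e-09 and 1.05e-05). Summed normalised intensity was 1630 to 4591 on the tumour arrays, against 395.6 to 713.5 on the TN3a arrays for the stromal list. It was 1827 to 2739 on the tumour arrays, against 722.5 to 882.7 on the TN3a arrays for the endothelial list. The part of these cells in the other differences was not tested.

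**Figure D2:**
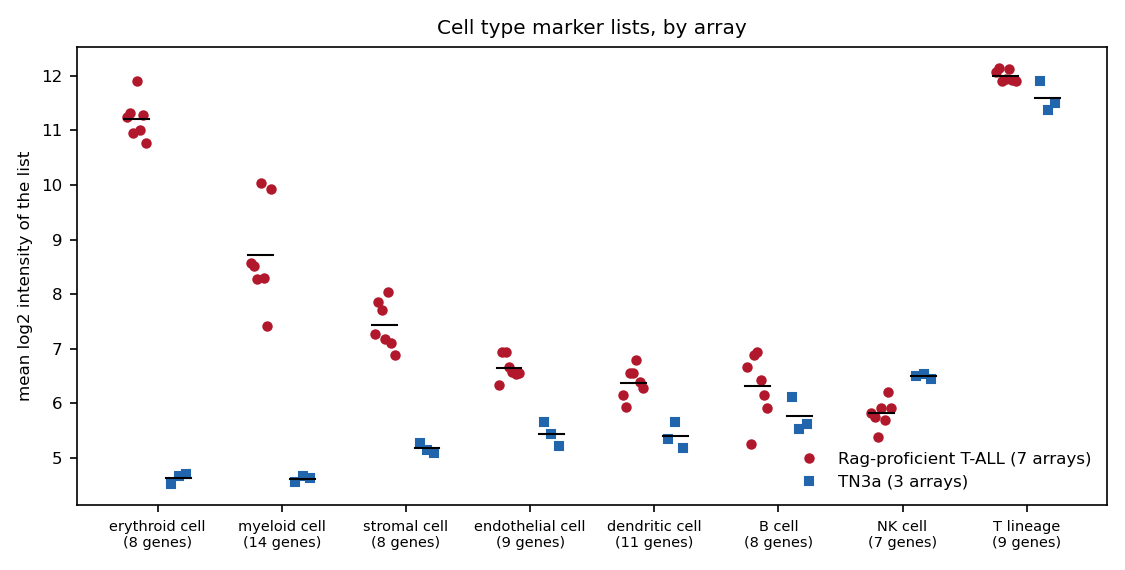
Mean log2 intensity of each cell type marker list on each array of Rag-proficient T-ALL (7) and TN3a (3), with lines at the group means. The erythroid and myeloid lists are higher on every tumour array than on any TN3a array, and the T lineage list is bright in both groups.

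Dendritic cell markers moved both ways. Among 11 dendritic cell genes 5 rose and 3 fell, and summed normalised intensity was 1358 to 4806 on the tumour arrays, against 848.9 to 2380 on the TN3a arrays. Cd74, the invariant chain of MHC class II, was at least 42.9-fold higher and H2-Eb1, a class II beta chain, at least 27.1-fold higher (limma adjusted p = 6.39e-10 and 5.53e-10). Bst2, an interferon-induced membrane protein also made by plasmacytoid dendritic cells, fell by 3.59 on the log2 scale and Siglech, a receptor of the same cells, fell by 2.55 (limma adjusted p = 5.31e-06 and 0.0129). Siglech was at 5.00 in tumour replicate 7 and at 4.42 or below in all other tumours, a low signal that makes its fall a fitted difference. The Siglech call was lost without TN3a replicate 2, at -1.74, without background correction, in the realigned joint table and with the tumours of any 1 slide.

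Immunoglobulin light chain transcripts varied widely among the tumours. Igk-C, the kappa constant region, had levels of 14.32, 7.80, 14.93, 14.69, 13.93, 9.61 and 11.81 in tumour replicates 1 to 7, against 4.64, 4.39 and 4.41 in TN3a, and was at least 240-fold higher (limma adjusted p = 7.82e-06). The kappa variable genes Igkv1-110 and Igkv9-124 and the lambda gene Igl-V1 were, with Igk-C, the 4 called probes with the widest range among the tumours. Igkv1-110 stood at 4.73, 10.33 and 13.57 in the lowest, median and highest tumour, Igkv9-124 at 4.26, 8.27 and 12.29 and Igl-V1 at 4.16, 11.55 and 14.45. The calls of Igkv9-124 and Igl-V1 were lost under 17 and 16 of 26 alternatives, and the second probes of Igkv1-110 and Igl-V1 were not called. No TN3a array detected any of them. Replicates 2, 6 and 7 were lower than replicates 1, 3, 4 and 5 for each of the 4, and the groups overlapped for Igl-V1. In the B cell list Igk-C was the 1 gene of 8 that rose, and the receptor component Cd79b the 1 that fell, by 4.53 (limma adjusted p = 2.34e-09). Pax5, the transcription factor of B cell commitment, differed by 0.16 (limma adjusted p = 0.595). Summed normalised intensity of the list was 434.3 to 31840 on the tumour arrays, against 1692 to 2503 on the TN3a arrays. In Rag-deficient tumours Igk-C averaged 4.96, below every Rag-proficient tumour, with a log2 difference of -7.48 (Rag-deficient minus Rag-proficient, limma adjusted p = 0.000316). Among the thymocytes the ETP arrays were the highest for Igk-C, at 9.82 and 11.10.

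Of 9 core T lineage genes, 9 were detected on every tumour array and 8 on every TN3a array, the exception being Cd2. Thy1, a surface protein of thymocytes, stood at 14.10, 14.27 and 14.47 in the lowest, median and highest tumour, against 14.05, 13.92 and 14.23 in TN3a, a difference of 0.23 with overlapping groups (limma adjusted p = 0.277). Of the 9 genes 1, Cd2, rose and 3 fell. Their median of -0.43 turned to 0.14 under median scaling, where none was called lower. The CD3 chain genes Cd3g and Cd3e fell by 0.93 and 0.82 (limma adjusted p = 0.0026 and 0.0225), and Bcl11b, a factor of T cell commitment, fell by 0.88 (limma adjusted p = 0.0199). The Bcl11b call was lost without TN3a replicate 1, at -0.77, or 2, at -0.83, and the Cd3e call without TN3a replicate 1, at -0.67, and with the tumours of any 1 slide. Cd3d differed by -0.65 (limma adjusted p = 0.152).

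Genes that mark the TN2 and TN3 stages were lower in the tumours more often than higher. Of 21 tested 11 fell, against 12.8% of all genes, and 4 rose, with a median of -1.57, while under median scaling 6 fell and 4 rose. Il2ra, which encodes CD25, stood at 4.51, 7.04 and 9.38 in the lowest, median and highest tumour, against 10.59, 10.98 and 10.96 in TN3a, and was 11.4-fold lower (log2 difference -3.52 ± 0.62, SE, limma adjusted p = 0.000222). Every tumour was below every TN3a array, while the tumours spread widely among themselves. Kit, the stem cell factor receptor of early precursors, was 5.97-fold lower and Il7r, the interleukin 7 receptor, 4.11-fold lower (limma adjusted p = 0.00453 and 0.0217). The Il7r call was lost without any 1 of the 3 TN3a arrays, at log2 differences of -1.97, -2.11 and -2.06 without replicates 1, 2 and 3, and its other 3 probes were not called. The Kit call was lost with the tumours of slide 1 alone, and the other Kit probe, at -0.37, was not called.

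Cpa3, a protease of mast cells and progenitors, was 22-fold lower in the mean (limma adjusted p = 0.000225), but tumour replicate 6, at 9.98, lay among the TN3a values of 11.07, 10.28 and 9.40. Going the other way, Cd44, the adhesion molecule that thymocytes lose before TN3, stood at 8.00, 8.28 and 9.55 in the lowest, median and highest tumour, against 5.38, 5.39 and 5.13 in TN3a, and was 9.39-fold higher with no overlap (limma adjusted p = 1.1e-06). Of its 5 probes 3 were called, all higher. Cd44 is also made by myeloid cells, whose markers moved with it, and their part in it was not tested.

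Notch receptors and targets moved in both directions. Of 23 genes of the pathway 8 rose and 5 fell, against 13.3% and 12.8% of all genes. Their median was 0.07, and -0.01 under median scaling. Notch1 fell by 1.11 with overlapping groups (limma adjusted p = 0.0108). Its call was lost without TN3a replicate 1, at -0.86, and with the tumours of slide 1 alone. Notch3 differed by -0.58 (limma adjusted p = 0.195). Among the targets, the transcriptional repressor Hes1 stood at 8.19, 9.03 and 9.26 in the lowest, median and highest tumour, against 10.90, 10.72 and 10.37 in TN3a, 3.43-fold lower with no overlap (limma adjusted p = 1.43e-05). Ptcra fell by 1.59 and Hes5, another repressor, by 1.52 (limma adjusted p = 0.000915 and 0.00257). The Hes5 call was lost with the tumours of slide 2 alone, and the other Hes5 probe, at -0.72, was not called. Hes5 was at 5.64 in tumour replicate 6 and at 4.75 or below in all other tumours, a low signal that makes its fall a fitted difference.

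Other targets of the pathway rose. Dtx1, an E3 ubiquitin ligase, stood at 10.72, 11.49 and 12.17 in the lowest, median and highest tumour, against 9.89, 10.04 and 10.18 in TN3a, with every tumour above every TN3a array (2.58-fold higher, limma adjusted p = 0.00201). Ccnd1, for cyclin D1, was 25.8-fold higher and Trib2, a pseudokinase, 8.07-fold higher (limma adjusted p = 6.65e-05 and 1.52e-07). The other Trib2 probe, at 0.14, was not called. Heyl, a repressor related to Hes1, was at least 3.45-fold higher (limma adjusted p = 0.00292). Myc, a growth regulator that Notch1 induces in T-ALL, differed by 0.66 (limma adjusted p = 0.302).

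Promoters are shown of Ptcra and Hes5, the fallen genes of the list that hold a match. The matches, in capitals, are to TGGGAA, the core of the letters bound by the Notch partner RBPJ, on either strand. RefSeq entries exist for 4 of the 5 fallen, 5 of the 8 risen and 9 of the 10 uncalled genes of the list. In the 250 bases before the start, 2 of the 4, 0 of the 5 and 2 of the 9 hold TGGGAA, against 21.6% of all 32851 promoters.
Ptcra, chr17:46763713-46763962, minus strand, with TGGGAA 84 to 79 and 32 to 27 bases before the start: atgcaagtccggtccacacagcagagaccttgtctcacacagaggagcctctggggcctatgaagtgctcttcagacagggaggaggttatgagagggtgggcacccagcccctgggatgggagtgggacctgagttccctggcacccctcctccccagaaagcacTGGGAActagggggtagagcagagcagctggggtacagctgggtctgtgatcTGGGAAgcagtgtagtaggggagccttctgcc
Hes5, chr4:154960673-154960922, plus strand, with TGGGAA on the other strand 226 to 221 and on the gene's strand 82 to 77 bases before the start: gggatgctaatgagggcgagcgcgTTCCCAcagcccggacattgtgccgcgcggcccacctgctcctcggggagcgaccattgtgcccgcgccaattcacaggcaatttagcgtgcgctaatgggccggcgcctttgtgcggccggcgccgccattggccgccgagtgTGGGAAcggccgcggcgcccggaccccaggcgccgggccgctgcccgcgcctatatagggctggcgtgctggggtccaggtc

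A single tumour stood apart in this pathway. Replicate 7, the only Rag-proficient tumour on slide 3, had the lowest level of the 7 for Nrarp (5.14), Ccnd1 (7.07), Heyl (4.48), Il2ra (4.51) and Il7r (5.21). Nrarp, a feedback inhibitor of Notch, was at 9.52 or above in the other 6, against 6.79, 6.89 and 7.80 in TN3a. Over the 7 tumours it was called higher by 2.11 (limma adjusted p = 0.0469), a call lost without any 1 of tumour replicates 1 to 6 or of the TN3a arrays. The 3 Rag-deficient tumours, on the same slide, averaged 9.28. For replicate 7 alone the difference from the TN3a mean was -1.96 for Nrarp, 1.75 for Ccnd1 and 0.13 for Heyl, which are values of 1 array with no test.

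Some recombination genes were lower in the tumours and others higher. Rag1, a subunit of the recombinase, stood at 8.86, 9.74 and 11.48 in the lowest, median and highest tumour, against 11.64, 11.78 and 11.27 in TN3a, 3.5-fold lower (limma adjusted p = 0.00244). The highest tumour, inside the TN3a range, was again replicate 7, and the other 6 lay below that range. Rag2, its partner, differed by -1.14 (limma adjusted p = 0.145). Dntt, the terminal transferase that adds bases at the joins, stood at 7.25, 8.50 and 9.97 in the tumours, against 12.47, 11.61 and 11.58 in TN3a, 9.8-fold lower with no overlap (limma adjusted p = 4.4e-06). Of 10 genes of the list 2 rose and 4 fell, against 13.3% and 12.8% of all genes, and under median scaling 1 rose and 1 fell. Hmgb2, a DNA-bending cofactor of the recombinase, rose by 1.78 (limma adjusted p = 0.000582).

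**Figure D3:**
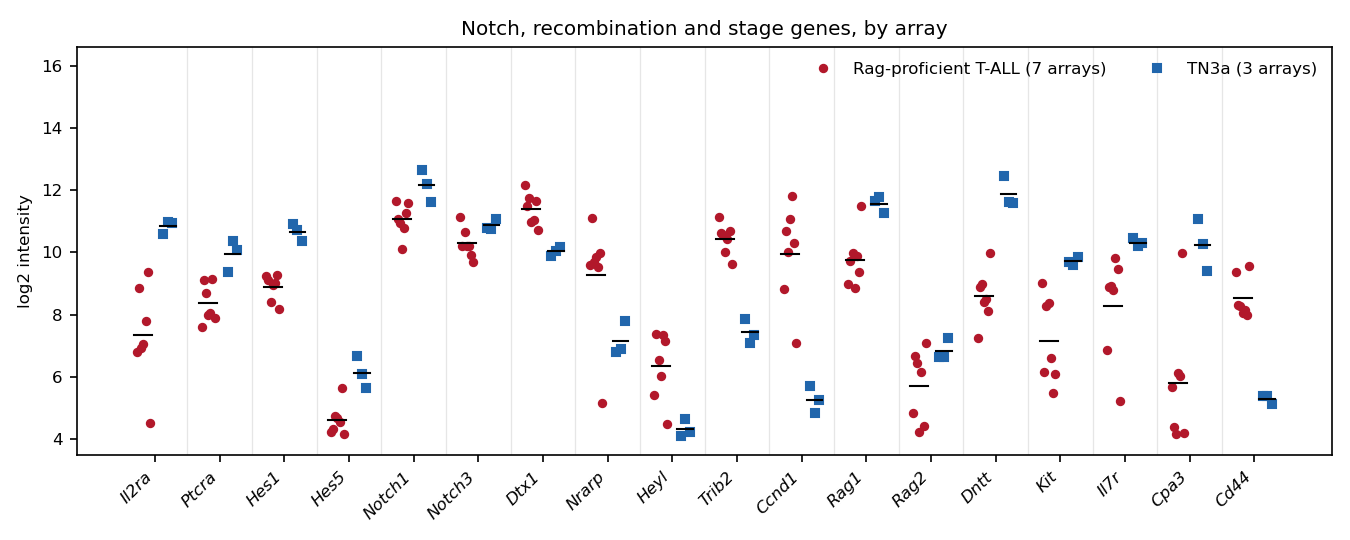
Log2 intensity of 18 Notch, recombination and stage genes on each array of Rag-proficient T-ALL (7) and TN3a (3), with lines at the group means. Il2ra, Hes1, Dntt and Kit are lower on every tumour array than on every TN3a array, Dtx1, Trib2, Ccnd1 and Cd44 higher, and Nrarp and Cpa3 each have 1 tumour far from the other 6.

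Some genes of receptor signalling and later stages were higher. Of 18 genes of pre-TCR and TCR signalling 4 rose and 4 fell, against 13.3% and 12.8% of all genes. Under median scaling 4 rose and 0 fell. Cd2, an adhesion receptor, stood at 10.32, 10.81 and 11.75 in the lowest, median and highest tumour, against 4.28, 4.39 and 4.60 in TN3a, none of which detected it, and was at least 83.6-fold higher (limma adjusted p = 1.61e-12). Among the normal stages its mean was 7.51 in TN3b, 9.37 in TN4 and 10.02 in DP. The kinases Zap70 and Fyn were 3.87-fold higher and 5.48-fold higher, and the surface receptor Cd6 4.99-fold higher (limma adjusted p = 5.19e-07, 0.000127 and 3.68e-07). The other Fyn probe, at 0.01, was not called.

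Cd8b1, the CD8 beta chain, depended on the probe. Probe ILMN_2741169 stood at 12.24, 12.91 and 13.96 in the lowest, median and highest tumour, against 6.94, 6.59 and 7.30 in TN3a, a log2 difference of 6.12 (limma adjusted p = 3.34e-11). A second probe, ILMN_2664929, differed by 4.79 (limma adjusted p = 3.27e-08), and ILMN_1257694, the brightest over all arrays, by -0.28 (limma adjusted p = 0.465). Stage means in ETP and DP were 5.79 and 14.79 for ILMN_2741169, 4.54 and 13.90 for ILMN_2664929, and 12.57 and 10.33 for ILMN_1257694. Of 11 genes induced at beta-selection 3 rose and 0 fell, against 13.3% and 12.8% of all genes. Cd28, whose protein TN3a lacks by its label, stood at 8.05, 8.87 and 9.90 in the tumours, against 7.35, 6.95 and 6.91 in TN3a, 3.58-fold higher with no overlap (limma adjusted p = 0.000345). Tfrc, the transferrin receptor, was 8.49-fold higher and Bcl2l1, an inhibitor of apoptosis, 5.86-fold higher (limma adjusted p = 0.000674 and 2.06e-05). Erythroid precursors also make both, and the part of these cells in them was not tested. The early response gene Egr1 differed by 1.05 (limma adjusted p = 0.278).

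**Figure D4:**
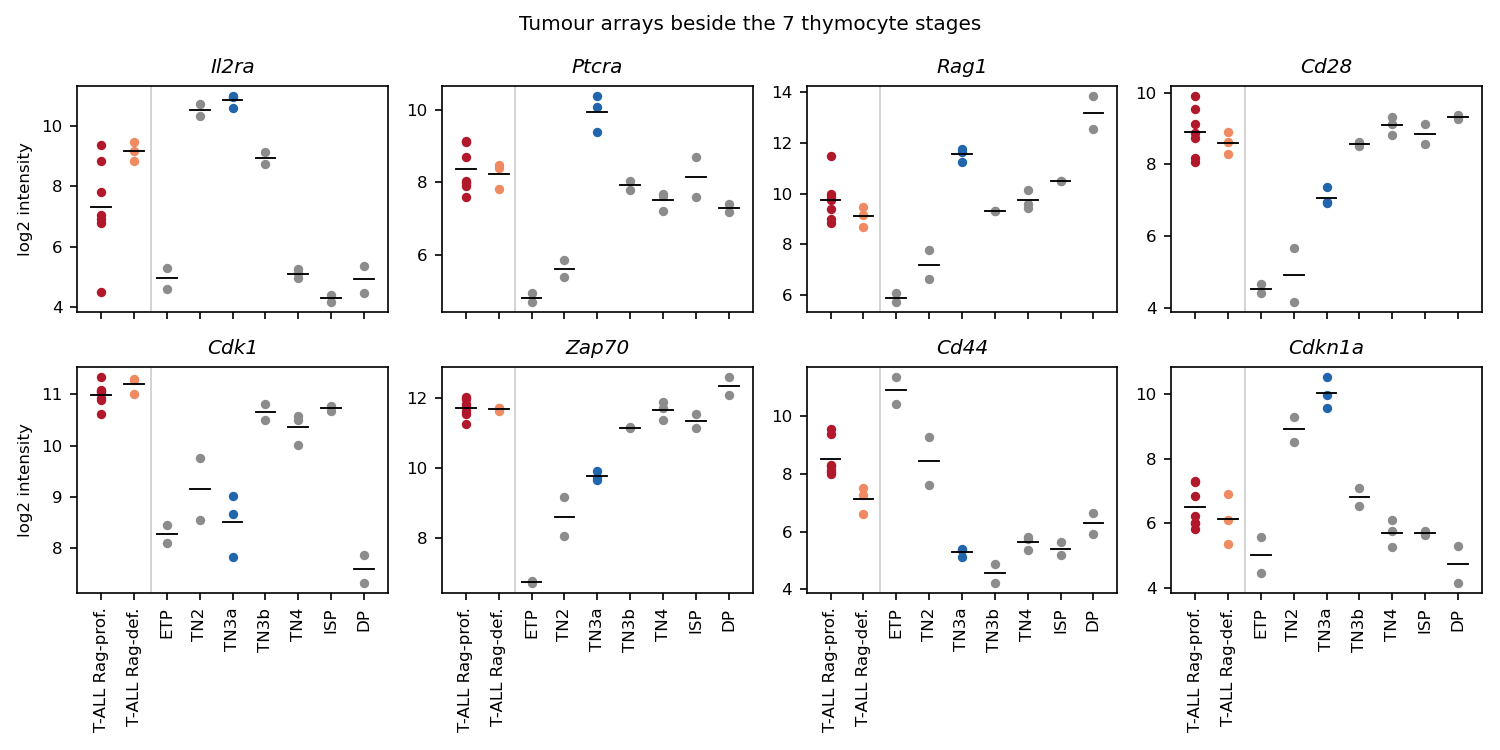
Log2 intensity of 8 genes on each array of Rag-proficient T-ALL (7), Rag-deficient T-ALL (3) and the 7 thymocyte stages in order of development, with lines at the group means. Both tumour groups have higher means than TN3a for Cd28, Cdk1, Zap70 and Cd44 and lower means for Il2ra, Ptcra, Rag1 and Cdkn1a.

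Cell division genes were higher in the tumours. Of 34 tested 25 rose, against 13.3% of all genes, and 0 fell, with a median of 1.34. Cdk1, the kinase that drives mitosis, stood at 10.62, 11.04 and 11.34 in the lowest, median and highest tumour, against 7.83, 8.66 and 9.01 in TN3a, 5.62-fold higher (limma adjusted p = 1.78e-07). Its other probes, at 0.16 and -0.38, were not called. The mitotic regulators Foxm1, Aurkb and Birc5 were 4.49-fold higher, 4.44-fold higher and 4.29-fold higher (limma adjusted p = 6.23e-07, 1.77e-06 and 2.75e-09), and the groups did not overlap for any of the 4. Subunits of the replicative helicase included Mcm4 and Mcm5 at 0.43 and 0.44 (limma adjusted p = 0.212 and 0.0822). TN3a itself had less Cdk1 than the mean of the other 6 stages, with a log2 difference of -0.96 (limma adjusted p = 0.0177). The count of risen genes was 13 with the slide 3 tumour alone, 1 array taken to vary like the other groups, and 7 when tested against a 2-fold change. Erythroid and myeloid precursors also divide, and their part in this rise was not tested.

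Inhibitors of the cell cycle did not move together. Of 16 tumour suppressors and inhibitors 7 rose and 2 fell, against 13.3% and 12.8% of all genes. Cdkn1a, the p21 inhibitor of cyclin-dependent kinases, stood at 5.83, 6.22 and 7.31 in the lowest, median and highest tumour, against 10.53, 9.58 and 9.96 in TN3a, 11.5-fold lower with no overlap (limma adjusted p = 6.42e-07). Cdkn2a, a locus often deleted in T-ALL, stood at 5.47, 6.19 and 7.89 in the tumours, against 5.15, 4.47 and 4.25 in TN3a, 3.35-fold higher (limma adjusted p = 0.00325). Cdkn2c, another kinase inhibitor, and Ezh2, the methyltransferase of Polycomb, were 4.22-fold higher and 3.44-fold higher (limma adjusted p = 0.000582 and 0.00447). The Ezh2 call was lost without TN3a replicate 1, at 1.21. No other probe was called for Cdkn2a (1.51 and -0.01), Cdkn2c (0.46) or Ezh2 (-0.20 and 0.59).

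Of 18 transcription factors linked to T-ALL 7 rose and 3 fell, against 13.3% and 12.8% of all genes. Lmo2 stood at 9.96, 10.10 and 10.88 in the lowest, median and highest tumour, against 4.23, 4.51 and 5.22 in TN3a, 47.3-fold higher (limma adjusted p = 1.05e-10). Tal1, which binds DNA in a complex with Lmo2, stood at 8.37, 8.91 and 9.99 in the tumours, against 5.64, 4.18 and 4.54 in TN3a, 18-fold higher (limma adjusted p = 5.43e-08). The groups did not overlap for either gene, and Lyl1, a relative of Tal1, and Gfi1b were 4.77-fold higher and 4.55-fold higher (limma adjusted p = 7.65e-06 and 9.44e-05). These 4 are also expressed in erythroid cells or blood progenitors, and the part of those cells in them was not tested. Hoxa7, a homeobox factor, was detected on no tumour array and stood at 8.24, 9.99 and 9.21 in TN3a, at least 25.5-fold lower in the tumours (limma adjusted p = 3.75e-12). Hoxa5 fell by 2.46 (limma adjusted p = 0.000261). Tlx1, Tlx3, Tal2, Lmo1, Nkx2-1 and Mycn did not pass the detection filter.

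Among 18 factors of T cell identity 2 rose and 5 fell, against 13.3% and 12.8% of all genes, but 2 rose and 1 fell under median scaling. When scaled to T lineage genes, 6 rose and 1 fell by their median, and 1 rose and 6 fell by their mean. The genes used for that scaling include Bcl11b and Gata3, themselves factors of T cell development, so it cannot decide the balance. They also include Cd2, which no TN3a array detected and which weighs on their mean more than on their median. The level of these 9 genes, Rag-proficient T-ALL minus TN3a, was 0.409 by the mean and -0.193 by the median. Lef1, a partner of beta-catenin, rose by 1.61, and Spib, an Ets factor of early precursors, fell by 2.03 (limma adjusted p = 0.00304 and 2.25e-06). The Lef1 call was lost without TN3a replicate 2, at 1.16, and of its other probes 1 was called higher and 1, at -0.18, was not called. The other Spib probe, at -0.37, was not called. Myb and Sox13 fell by 1.37 and 1.59 (limma adjusted p = 0.00944 and 0.0239), calls lost without TN3a replicate 2, at -1.16 and -1.39, or replicate 3, at -1.23 and -1.51. Both calls were also lost with the tumours of slide 1 alone. Gata3, required throughout T cell development, differed by 0.33 (limma adjusted p = 0.573). Tcrg-V4, a variable gene of the gamma receptor chain, stood at 8.88, 10.84 and 12.65 in the lowest, median and highest tumour, against 13.35, 12.94 and 13.43 in TN3a, 4.75-fold lower (limma adjusted p = 0.00315). Of 4 genes of gamma delta T cells 0 rose and 2 fell, and 0 fell under median scaling.

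The largest fall was that of H19, an imprinted non-coding RNA. It had levels of 4.26, 4.23, 4.17, 4.88, 4.92, 10.42 and 4.17 in tumour replicates 1 to 7, against 12.88, 13.29 and 13.64 in TN3a, 252-fold lower in the mean (limma adjusted p = 6.73e-07). Replicate 6 was far above the other tumours and below every TN3a array. Among the stages H19 was higher in TN3a than in the mean of the others by 6.33 (limma adjusted p = 3.13e-05). Epb41l4b, a cytoskeletal adaptor, was detected on no tumour array and stood at 11.79, 11.36 and 11.48 in TN3a, at least 134-fold lower in the tumours (limma adjusted p = 5e-16). Itgb4, the integrin beta 4 chain, was 95-fold lower and Scin, an actin-severing protein, 62.8-fold lower (limma adjusted p = 1.65e-12 and 2.73e-07). The other 6 of the 10 largest falls were A930013B10Rik, detected on no tumour array and at least 65.3-fold lower, Gm5111, at a log2 difference of -6.18 ± 0.22 (SE), Myl10, a myosin light chain, Dnajc6, a clathrin uncoating factor, Repin1, a zinc finger protein, and Hoxa7. Dnajc6 was lower still in Rag-deficient tumours, with a log2 difference of -1.16 (Rag-deficient minus Rag-proficient, limma adjusted p = 0.0363).

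The balance of receptor and interferon genes turned with the scaling. Of 24 cytokine and chemokine receptors 2 rose and 6 fell, against 13.3% and 12.8% of all genes, but 3 rose and 2 fell under median scaling. Tgfbr1, a chain of the TGF-beta receptor, fell by 1.94 (limma adjusted p = 3.35e-05). Of 27 genes of MHC class I and the interferon response 2 rose and 10 fell, with a median of -0.66, but 2 rose and 1 fell under median scaling. Psmb9, an immunoproteasome subunit, stood at 9.34, 9.85 and 10.25 in the lowest, median and highest tumour, against 11.32, 11.76 and 11.61 in TN3a, 3.39-fold lower with no overlap (limma adjusted p = 2.04e-06). H2-K1, a class I heavy chain, was 3.02-fold lower and Oasl2, an interferon-induced gene, 5.76-fold lower (limma adjusted p = 0.00317 and 0.0119), while Rsad2, an antiviral enzyme, was 9.34-fold higher (limma adjusted p = 1.25e-05). The H2-K1 and Oasl2 calls were lost without TN3a replicate 1, at -1.09 and -2.16, that of Oasl2 also with the tumours of slide 2 alone, and their other probes, at 0.26 and -0.79, were not called.

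Metabolic and survival genes changed in part, beside 13.3% of all genes higher and 12.8% lower. Of 19 genes of glycolysis and the hypoxia response 7 rose and 1 fell. The glucose transporter Slc2a3 was 3.97-fold higher, the stress gene Ddit4 4.18-fold higher and the glycolytic enzyme Pfkp 3.49-fold higher (limma adjusted p = 2.54e-05, 0.00127 and 0.000342), and the vessel growth factor Vegfa fell by 1.77 (limma adjusted p = 0.00272). Among 19 apoptosis regulators 4 rose and 2 fell. Bcl2, a survival gene, stood at 5.11, 6.42 and 7.18 in the lowest, median and highest tumour, against 8.44, 7.87 and 7.59 in TN3a, 3.22-fold lower with no overlap (limma adjusted p = 0.0027). Of 28 genes of ribosome production and other MYC targets 7 rose and 2 fell, with a median of 0.12. Of 16 immediate early and stress genes 4 rose and 3 fell.

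**Figure D5:**
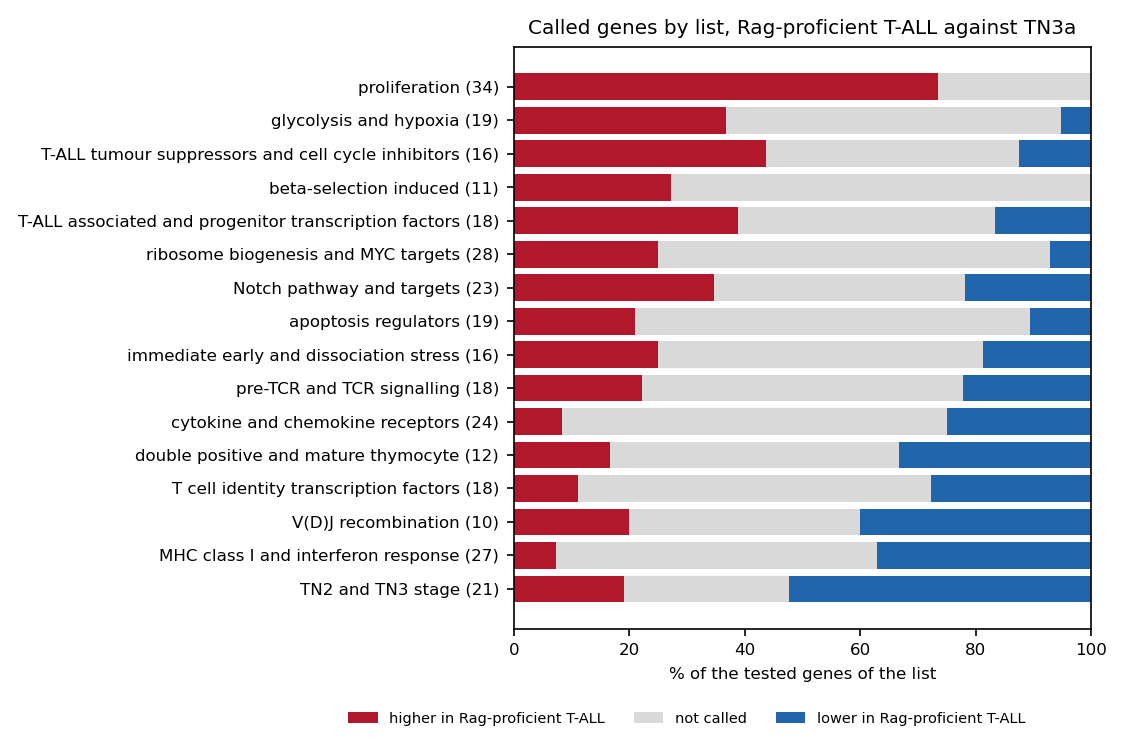
Share of the tested genes of each list, in percent, that were called higher in Rag-proficient T-ALL, not called, or called lower, with the number tested in brackets. Proliferation has 25 higher genes of 34, and the TN2 and TN3 stage list 11 lower genes of 21.

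Of 7 natural killer genes 0 rose and 2 fell, against 13.3% and 12.8% of all genes. Nkg7, a granule protein, stood at 6.40, 6.99 and 8.79 in the lowest, median and highest tumour, against 11.62, 11.52 and 11.03 in TN3a, 16.2-fold lower (limma adjusted p = 1.24e-07), and Prf1, which encodes perforin, was 2.99-fold lower (limma adjusted p = 0.0152). The Prf1 call was lost without TN3a replicate 2, at -1.43, or 3, at -1.52, and with the tumours of slide 1 alone, and its other probe, at 0.57, was not called. Summed normalised intensity of the list was 590.7 to 1381 on the tumour arrays, against 4067 to 5146 on the TN3a arrays. Of 6 thymic epithelial genes 1 rose and 1 fell, and their summed intensity was 206.4 to 360.7 on the tumour arrays, against 186.4 to 294.4 on the TN3a arrays.

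Rag-deficient T-ALL was set against the same TN3a arrays, so both comparisons share them. The log2 difference from TN3a was -3.52 in Rag-proficient and -1.69 in Rag-deficient tumours for Il2ra, and -1.78 and -1.51 for Hes1. It was 1.36 in Rag-proficient and 1.37 in Rag-deficient tumours for Dtx1, and 2.49 and 2.69 for Cdk1. The mean level of Cd2, which no TN3a array detected, was 10.92 in Rag-proficient and 10.91 in Rag-deficient tumours. The tumour groups differed from each other at 186 of 28736 probes (0.647%) and, by the brightest probe, at 129 genes (0.837%), among them Psmb9, higher in Rag-deficient tumours by 1.16 (limma adjusted p = 0.00543).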

How the data were processed

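The 7 arrays of Rag-proficient T-ALL and 3 of TN3a were fitted together with the other 16 arrays, each grouped by its own labels. Per the labels' protocols, RNAzol B was used to extract RNA and the Ambion MessageAmp kit to make labelled cRNA; the scanner software is not given in the sources used here. The authors deposited probe intensity on a linear scale, uncorrected and not normalised as the values show, in 2 tables, tumours in one and thymocytes in the other. A detection p-value stands beside each intensity, per the file headers. In the tumour table these p-values were taken to be 2-sided, which was inferred and is not certain. They were made one-sided around each array's background, which was taken from probes with a p-value above 0.95 (median). Detection on tumour arrays, the probe filter and the fold bounds depend on this reading. A joint table of log2 values that the authors deposited has its thymocyte rows displaced, and was used, realigned, as an alternative alone.

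Intensities were background-corrected (normexp, offset 16), quantile normalised over 26 arrays and turned to log2 in R 4.3.3 with limma 3.58.1 and statmod 1.5.0. Probes detected at a one-sided p-value under 0.01 on at least 2 arrays were kept, 28736 of them. Group means were fitted by limma with 1 variance shared over 9 groups (residual df 17), eBayes, and Benjamini-Hochberg adjustment over all kept probes. No fit dropped or imputed an array unless stated. The pipeline was tested on simulated data.

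Of 46089 probes 35667 have 1 gene symbol in the platform annotation, 0 have several and 10422 have none; symbols were updated through Entrez identifiers for 28519 and accessions for 2634. The brightest probe over all arrays stood for each of 15410 genes. The text names the 10 genes with the largest change in each direction among those called, at least 2-fold and without overlap, up to 4 called and 2 uncalled members of each gene list, and the 4 called probes with the widest range among tumours; a few others (Epor, Siglech, Hes5, Myc, Gata3, Cd44 probes, Cd8b1 probes and the like) were chosen after their values were seen. The members and lists were chosen with earlier results of these data known. Promoters and their coordinates are RefSeq's, on GRCm38.p6.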

Additional observations from a re-analysis of the deposited data

Results flagged for a closer look

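Among 106 genes looked at, 10 had 1 Rag-proficient tumour far from the other 6 by Dixon's criterion, which chance meets in about 1 group in 20. The lone tumour was higher for H19 (replicate 6, 10.4), Scin (replicate 6, 7.48), Cpa3 (replicate 6, 9.98), Hes5 (replicate 6, 5.64), Rag1 (replicate 7, 11.5), Siglech (replicate 7, 5.00), Epor (replicate 4, 8.09) and Epb41l4b (replicate 5, 4.46, undetected there). It was lower for Nrarp (replicate 7, 5.14) and Cldn5 (replicate 1, 5.35). Replicate 6 accounts for 4 of the 10 and replicate 7 for 3.

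For 8 genes the tumour groups differed from each other by limma at an adjusted p under 0.05. Rag-deficient minus Rag-proficient, the log2 difference was -7.48 for Igk-C, -4.74 for Tcrg-V4, -2.35 for the endothelial gene Esam, -2.29 for the stromal gene Dcn, -1.99 for the endothelial gene Cldn5, -1.79 for Vegfa, -1.16 for Dnajc6 and 1.16 for Psmb9. The other Dcn probe differed from TN3a by 0.18 in Rag-proficient T-ALL and was not called. No Rag-deficient array detected Dcn or Vegfa, and 1 detected Cldn5, so those values are fitted differences and not measured sizes. The strains of the tumour groups differ, and strain cannot be told apart from Rag status in these values.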

How the results depend on the processing

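The count of 6548 called probes became 889 when tested against a 2-fold change and 2104 with the slide 3 tumour alone. The 2001 probes at least 2-fold higher and 1881 lower became 917 and 768 without background correction, 1294 and 1158 with an offset of 50, 967 and 816 in the realigned joint table, 572 and 317 when tested against a 2-fold change, and 1164 and 897 with the slide 3 tumour alone. Median scaling left 828 lower probes, and 298 of the 1201 that set TN3a apart from the other stages. The slide 3 tumour is 1 array, taken to vary like the other groups. Leaving out 1 array of the groups compared at a time gave 4484 to 6435 called probes, 1757 to 2035 higher and 1535 to 1941 lower, 3086 to 3798 for Rag-deficient T-ALL, and 759, 636 and 669 for TN3a against the other stages without TN3a replicates 1, 2 and 3. Scaling to T lineage genes, chosen after seeing the data, gave 1205 higher and 4462 lower by their mean, and 15.9% of called probes higher, against 69.2% by their median. Slide as a random block gave 5999 called probes (correlation 0.15) and the 10 arrays alone 7516. TN2 replicate 2, which detected 21.34% of probes, the lowest share of any array, was the single other array left out. Without TN2 replicate 2 the count of called probes was 7684 in place of 6548, with 2118 at least 2-fold higher and 2050 lower. It was then 5309 for Rag-deficient T-ALL and 1402 for TN3a against the other stages. The sign turned for Nrarp (-1.96), Rag2 (0.25) and Egr1 (-1.71) with the slide 3 tumour alone. For Gata3 it turned without TN3a replicate 2 (-0.069 to 0.91 over all single arrays left out). The cause of these turns was not tested. T lineage scaling by the mean takes 0.409 from the difference of every probe. By that shift the sign turned for Thy1 (-0.18), Gata3 (-0.078) and Pax5 (-0.25). The calls of Igkv9-124, Igl-V1 and Nrarp were lost under 17, 16 and 16 alternatives, besides the 1 under which the sign of Nrarp turned. No paired analysis was possible because replicate numbers are names in accession order. Low signal limits folds of undetected probes to bounds.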
